A study of Mus musculus with 16 samples.

Results

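The MHC class II presentation genes are 10 genes that build, load and switch on the class II pathway: the classical chains H2-Aa, H2-Ab1 and H2-Eb1, the invariant chain Cd74, the DM subunits H2-DMa, H2-DMb1 and H2-DMb2, the DO subunits H2-Oa and H2-Ob, and the transactivator Ciita. They were read on every noncontrol array probe whose printed gene name equals one of these symbols, which gave 15 of 39429 probes and 10 of 31093 gene names. Of these 15, 13 passed the filter on dim probes and were tested among 27433, with at least 1 tested probe for each of the 10 genes. RNA came from macrophage-dendritic cell progenitors (MDPs) and common dendritic cell progenitors (CDPs) of female C57/Bl6 mice, sorted from bone marrow after lineage depletion. Mice either bore orthotopic mammary tumors of the PyMT B6 line, which derives from the MMTV-PyMT model, grown to 1.5 cm, or were age-matched and tumor-free. Each of the 4 groups held 4 samples, numbered 2 to 5 by the labels, each pooled from more than 1 mouse, on its own 1-color array. The tumor model is a single transplanted line, and sorted bulk RNA cannot tell fewer cells of a type from less RNA per cell.

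Class II molecules present peptides from the endosomal route to CD4+ T cells. An alpha and a beta chain pair in the endoplasmic reticulum around the invariant chain, which fills the groove and steers the complex to endosomes. There DM removes the last invariant chain fragment and edits the peptide, and DO holds DM back. Transcription of most of these genes depends on conserved promoter boxes, an X box bound by the RFX complex and a Y box bound by NF-Y, onto which the transactivator CIITA docks. Mature dendritic cells and B cells are known for high class II levels, whereas DC progenitors are known for low surface class II.

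The Y box is shown here because its core is found in the promoter windows of genes whose signals moved differently. RefSeq windows (GRCm38.p6, 250 bases before to 50 bases after the start) were found for 7 of the 10 genes, in 8 windows. The Y core ATTGG, searched on both strands, was in 7 of these 8 windows and in 37.4% of all 32851 promoter windows. The X1 core AGNNACNGA, also on both strands, was in 4 of the 8 and in 17.7% of all. Windows of 70 bases that start 50 bases before the Y core on the coding strand are printed 5′ to 3′ with matches to either core in capitals, and these matches do not overlap. They lie at chr17:34287852-34287921 on the minus strand (H2-Aa), and on the plus strand at chr17:34305758-34305827 (H2-Eb1), chr17:34153080-34153149 (H2-DMb1), chr17:34145109-34145178 (H2-DMb2), chr17:34092286-34092355 (H2-Oa) and chr17:34238798-34238867 (H2-Ob).
H2-Aa: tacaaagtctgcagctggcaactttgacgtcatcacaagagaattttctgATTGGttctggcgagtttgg
H2-Eb1: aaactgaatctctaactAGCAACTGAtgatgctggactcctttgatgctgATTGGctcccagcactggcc
H2-DMb1: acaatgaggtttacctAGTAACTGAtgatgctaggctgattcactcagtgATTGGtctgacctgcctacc
H2-DMb2: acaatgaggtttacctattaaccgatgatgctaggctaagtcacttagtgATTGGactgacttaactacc
H2-Oa: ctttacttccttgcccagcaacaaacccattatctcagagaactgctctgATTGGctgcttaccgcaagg
H2-Ob: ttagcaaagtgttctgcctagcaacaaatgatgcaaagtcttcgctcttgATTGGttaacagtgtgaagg
Both cores stood together in the printed 70 bases of H2-Eb1 and H2-DMb1, with the X1 core starting 33 and 34 bases before the Y core. In the full windows, on both strands, H2-Oa and H2-Ob also held both cores, as did 6.54% of all promoter windows. The printed windows of the neighboring paralogs H2-DMb1 and H2-DMb2 were identical at 61 of 70 bases. H2-DMa is not printed: its only Y core, in 1 of its 2 windows, lies 198 bases before the start, against 43 to 90 bases for the others. A match is a description of letters, and binding was not measured.

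Signals are given as normalized log2 signal, the log2 of the background-subtracted spot intensity minus the 75th percentile of the array, so that 0 is the level of that percentile. The share of probes well above background was 58.81% to 71.52% of an array, and 0 probes were saturated. The arrays lay on 4 slides. Slides 2 and 3 each held 1 array of every group, slide 1 held 0 CDP arrays from tumor-bearing mice and slide 4 held 0 MDP arrays from tumor-bearing mice. The 4 arrays of slide 1 stood apart from the other 12 without overlap for 29.2% of the tested probes, so results are also given with the slide as a block or without slide 1 where that bears on them. A probe was called when limma gave a Benjamini-Hochberg adjusted p under 0.05 and a fold change above 1.5.

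In CDPs, tumors were accompanied by lower signals of both DO subunits. limma called 2 of the 13 member probes, the H2-Oa probe and 1 of the 2 tested H2-Ob probes, both lower in tumor-bearing mice, beside 1.80% of all tested probes called in this comparison. Over the 13 probes the median change was −0.10 against 0.08 over all tested probes, and 8 of the 13 were lower against 42.4% of all. Groups did not overlap for 3 member probes, all lower with tumor (H2-Oa, H2-DMb2 and H2-Ob probe A_66_P130916), beside 11.1% of all probes. The classical chains, the invariant chain and Ciita had no call in either direction.

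H2-Oa, the alpha chain of DO, was read by probe A_51_P449325 at chr17:34232033-34232092 of mm9, the build of the array files. In CDPs of tumor-free mice it gave 0.20, 0.07, 0.13 and 0.37 (replicates 2 to 5, mean 0.19 ± 0.13, SD, n = 4). In CDPs of tumor-bearing mice it gave −0.53, −1.07, −0.88 and −0.32 (mean −0.70 ± 0.34). Every array with tumor was below every array without. The signal fell by 0.89 on the log2 scale (SE 0.19, 1.86-fold, limma adjusted p = 0.0278), and the change was −0.85 with the slide as a block (limma adjusted p = 0.00985). On the 3 slides that held both groups the difference was −1.01 to −0.53. In MDPs the same probe gave −0.21, −0.32, −0.50 and 0.17 without tumor and −0.48, −0.57, −0.65 and −0.24 with it. These MDP groups overlapped, and the change of −0.27 (SE 0.19, 95% interval −0.67 to 0.13) did not pass (limma adjusted p = 0.596).

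H2-Ob, the beta chain of DO, was read by 3 probes. Probe A_66_P130916, for which the files give no position, read −0.11, −0.91, 0.04 and 0.18 in CDPs of tumor-free mice and −1.48, −1.39, −3.15 and −1.25 in those of tumor-bearing mice. The groups did not overlap, and replicate 4 of the tumor-bearing group stood far below the other 3. The signal fell by 1.62 (SE 0.38, 3.07-fold, limma adjusted p = 0.0451), and without that replicate the change was −1.17 (limma adjusted p = 0.0745). A second probe, A_55_P2082929 at chr17:34382790-34382849, gave −1.79, −2.62, −3.71 and −0.82 without tumor and −4.09, −4.02, −3.88 and −3.32 with tumor. It had nearly the same change of −1.59 (SE 0.53) but overlapping groups and a limma adjusted p of 0.165. The third, A_55_P2057931 at chr17:34377309-34377368, was well above background on 1 of 16 arrays and was not tested.

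In MDPs the H2-Ob probe A_66_P130916 read 0.20, 0.12, −0.68 and −0.13 without tumor and −0.96, −0.93, −1.22 and −0.69 with it. These groups also did not overlap, the nearest arrays being −0.68 and −0.69, with an exact two-sided permutation p of 0.0286, the smallest that 70 relabelings allow. The change of −0.83 (SE 0.38) did not pass the adjusted threshold (limma adjusted p = 0.475).

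Each of the 2 DO calls in CDPs held in 2 of 8 fits with 1 array left out, and why they were lost was not tested. With 1 array left out, the H2-Oa call held without CDP tumor-bearing replicate 2 or 5 and was lost without tumor-bearing replicate 3 or 4 or any of the tumor-free replicates 2, 3, 4 and 5, with limma adjusted p from 0.0154 to 0.0981 and changes from −1.02 to −0.77. For H2-Ob A_66_P130916 the call held without tumor-free replicate 3 or tumor-bearing replicate 5 and was lost without tumor-free replicate 2, 4 or 5 or tumor-bearing replicate 2, 3 or 4, with limma adjusted p from 0.037 to 0.13. Neither was called without the arrays of slide 1, where the changes were −0.83 (adjusted p = 0.0844) and −1.49 (adjusted p = 0.131), or when only the 2 CDP groups were fitted.

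**Figure D1:**
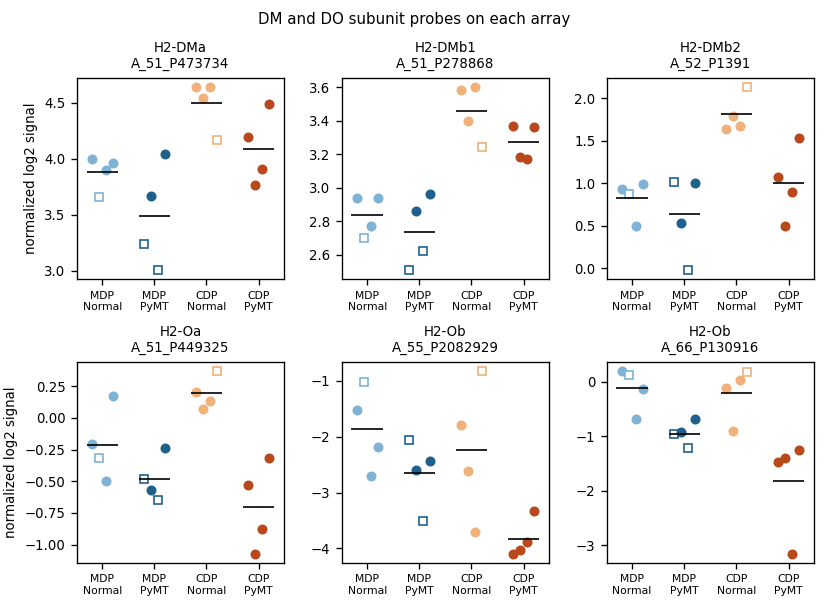
Normalized log2 signal (vertical axis) of the 3 DM and 3 tested DO probes on each array, by group, with the group mean as a line and arrays of slide 1 as open squares. For H2-Oa the 4 CDP arrays with tumor lie between −1.07 and −0.32, below the tumor-free arrays at 0.07 to 0.37, and the 4 tumor-free CDP arrays of H2-DMb2, at 1.64 to 2.13, lie above all other arrays.

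None of the 3 DM probes was called with tumor in CDPs, and whether their changes differ from those of DO was not tested. H2-DMb2, one of 2 DM beta chain genes, was read by probe A_52_P1391 at chr17:34284764-34284823 and gave 1.64, 1.79, 1.67 and 2.13 in tumor-free CDPs and 1.07, 0.50, 0.89 and 1.53 in tumor-bearing ones. The groups did not overlap, and the change of −0.81 (SE 0.25, 95% interval −1.36 to −0.27) did not pass the threshold (limma adjusted p = 0.135). H2-DMb1, the other beta chain gene, changed by −0.18 (SE 0.14, 95% interval −0.49 to 0.12), and H2-DMa, the alpha chain, by −0.41 (SE 0.22, 95% interval −0.89 to 0.07). All 3 differences were negative on each of the 3 slides that held both CDP groups.

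In MDPs no member probe was called, beside 0.0656% of all tested probes, and 1 of the 13 had an unadjusted p under 0.05. All 13 estimates were negative, where 60.5% of all tested probes were, and their median was −0.52 against −0.12 over all tested probes. Groups did not overlap for 1 member probe, H2-Ob A_66_P130916, beside 5.21% of all. The largest estimates belonged to the E beta chain H2-Eb1, with −1.15 (SE 0.54, limma adjusted p = 0.48), and the A alpha chain H2-Aa, with −1.03 (SE 0.71, limma adjusted p = 0.59), and their 95% intervals of −2.31 to 0.00 and −2.55 to 0.49 span both a large fall and none. Some of the estimates turned in sign with a setting: both Ciita probes with the slide as a block (0.17 and 0.07), Ciita A_55_P2179074 (0.04) and H2-DMb1 (0.03) without slide 1, and H2-DMb2 without tumor-bearing replicate 4 (0.03).

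**Figure D2:**
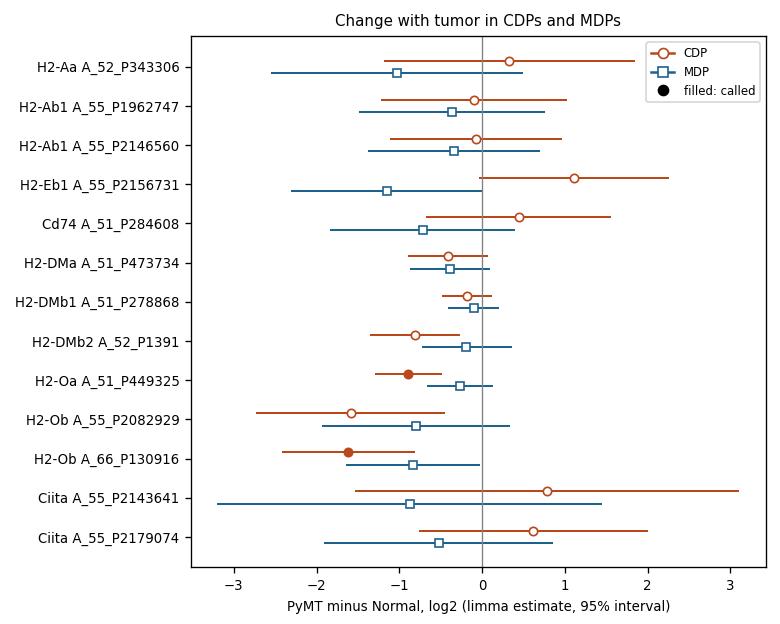
limma estimates (log2, PyMT minus Normal) with 95% intervals for the 13 tested probes, circles for CDPs and squares for MDPs, filled where called. The 2 filled circles are H2-Oa at −0.89 and H2-Ob A_66_P130916 at −1.62, and every MDP square lies below 0, although the sign of H2-DMb1, H2-DMb2 and Ciita turned with a setting.

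The classical chains and the invariant chain showed a different pattern: they varied widely from array to array within a group and varied together. H2-Aa (A_52_P343306, chr17:34421285-34421344, minus strand) gave 0.50, −0.73, −0.82 and 0.52 in tumor-free CDPs and 1.67, −2.17, 1.02 and 0.27 in tumor-bearing CDPs. In MDPs it gave 1.08, 0.40, 1.37 and 0.43 without tumor and 0.43, −1.0, 0.85 and −1.13 with it. The tumor-bearing CDP arrays thus spanned the highest and the lowest value of all 16, and the change in CDPs was 0.33 (SE 0.71, 95% interval −1.19 to 1.85, limma adjusted p = 0.881).

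H2-Eb1, the E beta chain, was read by A_55_P2156731 at chr17:34453075-34453134. It gave −1.0, −2.53, −2.62 and −1.75 in tumor-free CDPs and 0.37, −1.64, −0.64 and −1.54 in tumor-bearing CDPs, and the MDP values were 0.15, −0.60, 0.17 and −0.84 without and −1.28, −1.89, −0.18 and −2.38 with tumor. Both pairs of groups overlapped. The estimate was 1.11 in CDPs (SE 0.54, limma adjusted p = 0.392) and −1.15 in MDPs. H2-Eb1 had the largest difference between the 2 changes among the members, 2.26 (SE 0.76, 95% interval 0.63 to 3.89, unadjusted p = 0.0101 in limma), which did not pass after adjustment over all probes (limma adjusted p = 0.748). No member was called in that test of the difference, beside 0.0146% of all probes, and 2 of 13 had an unadjusted p under 0.05, the other being H2-Oa with −0.62 (SE 0.26).

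H2-Ab1, the A beta chain, was read by 2 probes of 60 bases at chr17:34406296-34406355 and chr17:34406305-34406364. They are shifted by 9 bases and overlap over 51, with 1 difference there, T51C (the base of A_55_P1962747 first, its position from the 5′ end of that probe, then the base of A_55_P2146560). Positions 31 to 60 of the first probe and the matching stretch of the second are printed because they show how nearly the 2 readings repeat each other, with the differing base in capitals.
A_55_P1962747: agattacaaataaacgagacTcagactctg
A_55_P2146560: agattacaaataaacgagacCcagactctg
The 2 probes gave almost equal changes, −0.10 (SE 0.52) and −0.07 (SE 0.49) in CDPs and −0.37 and −0.34 in MDPs, and share their target, so they are not independent readings of the gene. Cd74 (A_51_P284608) gave 2.09, 1.01, 0.93 and 1.62 in tumor-free and 2.88, 0.61, 1.90 and 2.02 in tumor-bearing CDPs, with a change of 0.44 (SE 0.52, 95% interval −0.68 to 1.56). In MDPs it gave 2.02, 1.25, 2.53 and 1.26 without tumor and 1.25, 0.69, 2.25 and 0.00 with it, a change of −0.72 (SE 0.52).

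Within the tumor-bearing groups the same arrays were high or low for these 5 probes, and less uniformly so in the tumor-free groups. Among tumor-bearing CDPs, replicate 2 was the highest and replicate 3 the lowest for 5 of 5 probes, and among tumor-bearing MDPs replicate 4 was the highest and replicate 5 the lowest for 5 of 5. In tumor-free CDPs replicate 4 was the lowest for 4 of 5 and the highest was replicate 5 for 3 and replicate 2 for 2. In tumor-free MDPs replicate 5 was the lowest for 3 and replicate 3 for 2, and the highest was replicate 4 for 3 and replicate 2 for 2. Their within-group SD, pooled over the groups, was 0.73 to 1.07, at the 74.3 to 88.5 percentile of all tested probes, whose median was 0.44. The DM probes and H2-Oa varied little by comparison, with 0.16 for H2-DMb1 (5.5 percentile), 0.25 for H2-Oa, 0.31 for H2-DMa and 0.36 for H2-DMb2. Wide spread was not particular to the classical chains: H2-Ob A_55_P2082929 had 0.80 (78.1 percentile), H2-Ob A_66_P130916 0.56, and the Ciita probes 0.98 and 1.65 (85.3 and 98.5 percentile).

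**Figure D3:**
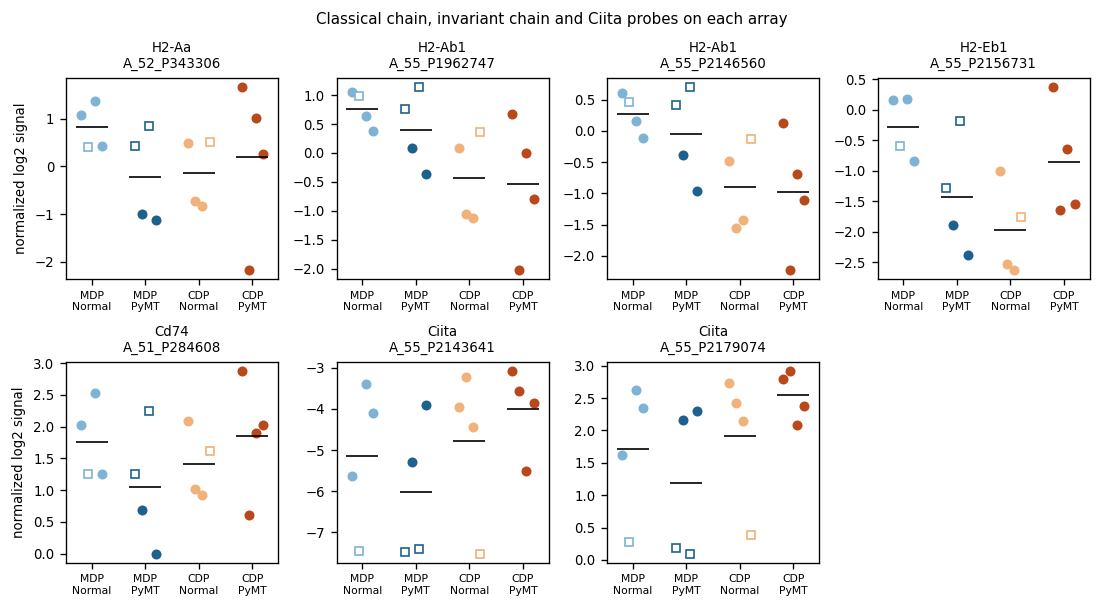
Normalized log2 signal (vertical axis) of the classical chain, invariant chain and tested Ciita probes on each array, by group, with the group mean as a line and arrays of slide 1 as open squares. Arrays of 1 group spread widely for the first 5 probes, from −2.17 to 1.67 for H2-Aa in tumor-bearing CDPs, and the 4 open squares of both Ciita probes lie below all 12 other arrays.

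The genes nearest to the mean profile of H2-Aa, H2-Ab1, H2-Eb1 and Cd74 over the 16 arrays, among 16225 other symbols, were C1qc (Pearson r = 0.951), Il1b (0.921), Bcl2a1d (0.878), Mmp12 (0.875) and C3ar1 (0.859). C1qc encodes a chain of complement C1q, Il1b an inflammatory cytokine, Mmp12 a macrophage elastase and C3ar1 a receptor for complement C3a. These correlations are a description over arrays that share slides and scaling, and they were 0.944, 0.919, 0.888, 0.877 and 0.865 after the group means were removed. Without the 2 arrays farthest from the median of the profile they were 0.924, 0.936, 0.828, 0.902 and 0.889. C1qc ranged from −7.56 to −2.03 in tumor-bearing CDPs and was well above background on 3 of those 4 arrays, on 2 of 4 in tumor-free CDPs, 4 of 4 in tumor-free MDPs and 3 of 4 in tumor-bearing MDPs. None of these 5 genes was called in any of the 5 comparisons. The other members did not follow the profile: within groups their correlation with it was between −0.366 (Ciita A_55_P2179074) and 0.0922 (H2-Ob A_55_P2082929).

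**Figure D4:**
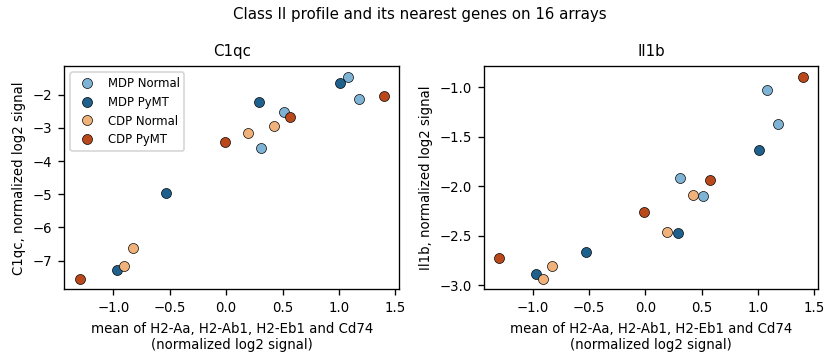
Mean normalized log2 signal of the brightest probes of H2-Aa, H2-Ab1, H2-Eb1 and Cd74 (horizontal axis) against C1qc (left) and Il1b (right) on the 16 arrays, colored by group. The tumor-bearing CDP arrays lie at both ends, from −1.30 to 1.40, and the points of all 4 groups follow 1 course, with r = 0.951 for C1qc and 0.921 for Il1b.

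Between the progenitors, both DM beta chain genes were higher in CDPs than in MDPs of tumor-free mice. There limma called 2 of 13 member probes, H2-DMb1 and H2-DMb2, both higher in CDPs, beside 6.10% of all tested probes, and 7 of 13 had an unadjusted p under 0.05 against 17.1% of all. The median difference was −0.08 for the members and 0.02 for all probes. The groups did not overlap for 6 member probes, beside 13.3% of all: the 3 DM probes were higher in CDPs, and the H2-Eb1 and both H2-Ab1 probes were lower.

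H2-DMb1 (A_51_P278868, chr17:34297109-34297168) gave 2.94, 2.70, 2.77 and 2.94 in MDPs and 3.58, 3.40, 3.60 and 3.24 in CDPs of tumor-free mice. Every CDP array was above every MDP array, by 0.62 on average (SE 0.14, 1.53-fold, limma adjusted p = 0.0171). H2-DMb2 gave 0.93, 0.87, 0.49 and 0.99 in MDPs, below the CDP values given above, with a difference of 0.99 (SE 0.25, 1.99-fold, limma adjusted p = 0.0313). For H2-DMa (A_51_P473734, with no position in the files) the MDP values were 4.0, 3.66, 3.90 and 3.96 and the CDP values 4.64, 4.54, 4.64 and 4.17. Its groups did not overlap either, and its difference of 0.61 (SE 0.22) did not pass (limma adjusted p = 0.142), whereas it was called with the slide as a block (0.61, limma adjusted p = 0.013). Within each of the 4 slides the difference was positive for all 3 genes, 0.53 to 0.67 for H2-DMb1, 0.65 to 1.30 for H2-DMb2 and 0.51 to 0.67 for H2-DMa. Whether a probe of one beta chain gene also binds transcripts of the other was not tested.

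With 1 array left out, H2-DMb2 was called in none of the 8 fits (tumor-free MDP replicates 2 to 5 and CDP replicates 2 to 5, differences 0.88 to 1.05, limma adjusted p 0.0565 to 0.0934). H2-DMb1 lost the call without MDP replicate 3 (0.57, limma adjusted p = 0.0494, where the fold was under 1.5) and without CDP replicate 2 or 4 (limma adjusted p = 0.0596 and 0.0588). Without slide 1, H2-DMb1 remained called (0.64, limma adjusted p = 0.0153) and H2-DMb2 did not (0.90, limma adjusted p = 0.0653).

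The classical beta chains ran the other way in tumor-free mice without passing the threshold. H2-Eb1 was −1.97 ± 0.76 in CDPs and −0.28 ± 0.52 in MDPs (SD, n = 4), a difference of −1.69 (SE 0.54, limma adjusted p = 0.0845). H2-Ab1 A_55_P1962747 gave 1.06, 0.98, 0.64 and 0.38 in MDPs and 0.09, −1.05, −1.12 and 0.36 in CDPs, a difference of −1.20 (SE 0.52, limma adjusted p = 0.249). The nearest arrays of these H2-Ab1 groups were 0.36 and 0.38, so that their separation is narrow.

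In tumor-bearing mice 0 of 13 member probes were called between CDPs and MDPs, beside 7.26% of all, with 4 of 13 at an unadjusted p under 0.05 in limma and a median difference of 0.41 against 0.19 over all probes. Groups did not overlap for 2 member probes, beside 14.1% of all: H2-DMb1 was higher in CDPs and H2-Ob A_66_P130916 lower. H2-DMb1 gave 2.51, 2.86, 2.62 and 2.96 in MDPs and 3.37, 3.18, 3.17 and 3.36 in CDPs. Its difference of 0.54 (SE 0.14) had a limma adjusted p of 0.0333 but stayed under the fold threshold at 1.45-fold. Without tumor-bearing MDP replicate 5 both H2-DMb1 (0.61, limma adjusted p = 0.0214) and H2-DMa (0.78, limma adjusted p = 0.0338) were called. Without slide 1, which holds 2 of the tumor-bearing MDP arrays, the differences of H2-DMb1 and H2-DMa were 0.36 (limma adjusted p = 0.18) and 0.23 (limma adjusted p = 0.604), down from 0.54 and 0.60. H2-DMb2 differed by 0.37 (SE 0.25, 95% interval −0.18 to 0.91) in these mice, and the H2-Ob probe by −0.87 (SE 0.38, limma adjusted p = 0.16).

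**Figure D5:**
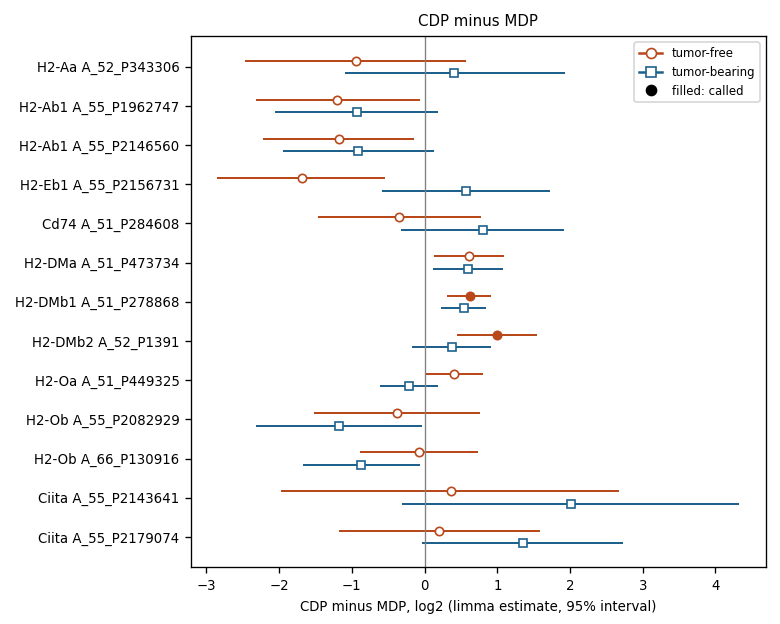
limma estimates (log2, CDP minus MDP) with 95% intervals for the 13 tested probes, circles for tumor-free and squares for tumor-bearing mice, filled where called. The filled circles are H2-DMb1 at 0.62 and H2-DMb2 at 0.99, and the circle of H2-Eb1 lies at −1.69.

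Ciita, the transactivator of the family, was not called in any comparison, and its readings stood apart on slide 1. Its brightest probe, A_55_P2179074 at chr16:10526568-10526627, read 0.10 to 0.38 on the 4 arrays of slide 1, which belong to 3 groups, and 1.62 to 2.92 on the other 12. The dimmer tested probe A_55_P2143641 (chr16:10491091-10491150) read −7.51 to −7.40 on slide 1 and −5.62 to −3.08 elsewhere. No other tested member probe had slide 1 below all other arrays. The bright probe is 65.0% A, with AAAAC 8 times in its 60 bases. Positions 15 to 44 are printed to show what it can bind, with AAAAC in capitals.
A_55_P2179074: AAAACAAAACAAAACgaaacAAAACAAAAC
Such a simple repeat need not be particular to Ciita, and the other probes hold AAAAC 0 times. In CDPs the changes with tumor were 0.62 (SE 0.64) and 0.78 (SE 1.08), in the order of the brighter and the dimmer probe. With the slide as a block they were 0.03 and −0.26, and without slide 1 they were 0.11 and −0.13. Within the 3 slides that held both CDP groups the difference of A_55_P2179074 was −0.35 to 0.43. The third probe, A_55_P2035003 (chr16:10492271-10492330), was well above background on 3 of 16 arrays and was not tested.

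Of 29 further genes of the pathway, 26 were tested. In CDPs 1 rose with tumor and 0 fell, beside 1.80% of all tested probes called, with a median change of −0.22. The riser was Ctsl, the lysosomal protease cathepsin L, with −1.39 in tumor-free and 0.10 in tumor-bearing CDPs (1.49, SE 0.35, limma adjusted p = 0.0464). In MDPs 0 were called, beside 0.0656% of all, and the median was −0.09. Between progenitors in tumor-free mice 7 were higher in CDPs and 0 lower, beside 6.10% of all tested probes called. Among these were the processing enzymes Ifi30, a thiol reductase (1.15, SE 0.19), Ctss, which trims the invariant chain (0.86, SE 0.16), and Lgmn, an asparagine endopeptidase (1.31, SE 0.26). The costimulatory ligand Icosl was the next (1.62, SE 0.17). The other 3 were dim in MDPs: the costimulatory ligand Cd86, the receptor Cd40 and the factor Irf4 were well above background on 1, 3 and 2 of 4 tumor-free MDP arrays and on 4 of 4 CDP arrays. Cd86 and Irf4 passed the filter only through CDPs, which favors a higher signal in CDPs, whereas Cd40 also passed through tumor-free MDPs. In tumor-bearing mice, where 7.26% of all tested probes were called, the same 7 were higher, with Irf4 above background on 0 of 4 MDP arrays, and 1, the ubiquitin ligase gene March8 that lowers surface class II, was lower in CDPs (−1.33, SE 0.26, limma adjusted p = 0.00743).

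Factors that act on Ciita were not called with tumor in either progenitor, 0 of 6 in each. Irf8 changed by −0.02 (SE 0.24), Irf4 by −0.67 (SE 0.43), Irf1 by −0.36 (SE 0.15), Spi1 by 0.22 (SE 0.17) and Prdm1 by 0.47 (SE 0.90) in CDPs. In MDPs Prdm1 changed by −1.15 (SE 0.90), Irf1 by −0.14 (SE 0.15), Irf8 by −0.13 (SE 0.24) and Spi1 by 0.16 (SE 0.17), and Irf4 exceeded background clearly on 2 of 4 arrays without tumor and on 0 of 4 with it. The 7 genes of the RFX, NF-Y and CREB complex had 0 calls in any of the 5 comparisons. In CDPs with tumor 6 of 7 estimates were negative, where 42.4% of all tested probes were. Their median was −0.48 against 0.08 over all tested probes. Of the 6, 1 was dim, well above background on 2 of 4 arrays in each CDP group. H2-Ea-ps, the E alpha locus that C57BL/6 mice do not express, was above background on 0 of 16 arrays, and H2-Eb2 on 3 of 16, with levels too low to test.

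Markers of other cells moved with the groups in part. Of 39 markers, those of the sorted cells included, 33 were tested. In CDPs 2 were called higher and 3 lower with tumor, beside 1.80% of all tested probes called. In MDPs 1 was called higher and 1 lower, beside 0.0656% of all. The 6 tested markers of conventional DCs averaged −0.22 to 0.35 over the tumor-free and −2.54 to −0.96 over the tumor-bearing CDP arrays, and −2.22 to −1.93 and −4.61 to −3.23 over the MDP arrays. These averages did not overlap between tumor-free and tumor-bearing arrays in either progenitor. Among all single probes, 11.1% did not overlap in CDPs and 5.21% in MDPs. Part of the marker values in tumor-bearing MDPs were not well above background. Of the 6, 1 was called with tumor in each progenitor, Cd209a (−3.25, SE 0.44 in CDPs, and in MDPs from −3.69 to a level not well above background on any of the 4 tumor-bearing arrays), and the seventh marker, Xcr1, was above background on 0 arrays. Monocyte and macrophage markers (5 of 7 tested) averaged −0.74 to 0.01 in tumor-free and 0.15 to 0.69 in tumor-bearing CDPs. B cells also carry DO: their defining gene Ms4a1 was above background on 0 of 16 arrays, whereas Cd79b and Pax5 were above it on all 16, with changes of −0.09 (SE 0.17) and −0.02 (SE 0.27) with tumor in CDPs. The 4 of 7 B cell markers that were tested averaged −2.49 to −1.55 in tumor-free and −2.76 to −2.26 in tumor-bearing CDPs. The 6 plasmacytoid DC markers averaged −0.01 to 0.57 and −0.13 to 0.22 in these groups, and the 8 neutrophil markers −1.05 to 0.75 and 0.04 to 0.88. Among them Bst2 fell (−0.69, limma adjusted p = 0.0373) and the granule genes Lcn2 (2.70, limma adjusted p = 0.00186) and Elane (1.11, limma adjusted p = 0.0227) rose with tumor in CDPs, and Lcn2 also rose in MDPs (2.16, limma adjusted p = 0.0489). Other markers of these lists went the other way without a call. In CDPs 4 of the 6 plasmacytoid DC estimates were negative, with Siglech (0.37) and Ccr9 (0.80) positive. Of the 8 neutrophil estimates 5 were positive in each progenitor. The granule genes Ltf, Camp and Ngp were negative in both (−0.45, −0.65 and −0.25 in CDPs). Of the sorted cells' own markers, Flt3, Csf1r, Kit and Cx3cr1 were above background on all 16 arrays, and Kit fell in CDPs with tumor (−1.34, limma adjusted p = 0.00427). The part of these markers in the class II results was not tested.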

How the data were processed

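RNA of 16 sorted samples was hybridized to 1-color Agilent arrays, scanned by the authors and read with Feature Extraction 11.5.1.1 per the file headers. The deposited intensity of each spot is the processed signal, background-subtracted by that software, and it comes with flags, as 0 or 1, for outlier spots, saturation and signal well above background. The deposited value table of the authors, on a log2 scale, was used as an alternative. Outlier spots were left out, log2 intensity was scaled to the 75th percentile of each array and spots of a probe were averaged. A probe was tested where, in 1 or more groups, a minimum of 3 of the 4 arrays had it well above background. Group means of all 16 arrays were fitted in limma 3.58.1 (R 4.3.3) with empirical Bayes moderation and Benjamini-Hochberg adjustment over all tested probes, and calls needed an adjusted p under 0.05 and a fold above 1.5, the thresholds of the study. The script was tested on simulated data. Alternatives covered background correction, scaling, filter, deposited values, slide and replicate blocks, the groups fitted, the t-test of the methods and leaving out each array. Every probe of the 10 genes is reported, pathway and marker genes are read on their brightest probe, and those named are the called ones, the factors acting on Ciita and the defining markers, of which some are not reported here. The members and lists were chosen with earlier results of these data known. The labels do not say that every sample came from separate animals, so p-values measure the spread between these samples. Probe positions are those of the files (mm9) and were not assigned to exons or UTRs. The number of arrays limits the precision.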

Additional observations from a re-analysis of the deposited data

Results flagged for a closer look

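Of 52 sets of 4 arrays, 1 for each tested member probe in each group, 1 held a value far from the rest. H2-Ob probe A_66_P130916 read −3.15 in replicate 4 of the tumor-bearing CDPs, where the gap to the next array was 0.881 of the range of the group, above Dixon's 95% critical value. Chance puts some sets past that value, so 1 among 52 is no pattern.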

How the results depend on the processing

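Calls among the 13 member probes depended on the setting. For tumor in CDPs (2 calls) the count was 1 with no filter on dim probes, where H2-Ob A_66_P130916 had a limma adjusted p of 0.059, and 0 with only the groups compared in the fit, 0 by the methods' t-test after Benjamini-Hochberg, 4 by that test unadjusted and 0 with the arrays of slide 1 left out, an alternative chosen after seeing the data. Leaving out 1 array gave 0 to 2. For tumor in MDPs (0 calls) it was 1 by the unadjusted t-test and 0 without any single array, and the difference between the changes also had 0 without any single array. Between the progenitors of tumor-free mice (2 calls) it was 1 with normexp, 1 with only the groups compared, 6 by the unadjusted t-test, 1 without slide 1 and 0 to 1 without single arrays. In tumor-bearing mice (0 calls) it was 1 by the unadjusted t-test and 0 to 2 without single arrays. The cause was not tested. Without single arrays the median member change ran from −0.44 to 0.35 for tumor in CDPs, −0.60 to −0.39 for tumor in MDPs, −0.10 to 0.68 for their difference, −0.28 to 0.11 between progenitors in tumor-free mice and 0.16 to 0.57 in tumor-bearing mice. With the replicate number as a block the counts were 2, 0, 0, 3 and 0, with H2-Eb1 added in tumor-free mice (−1.69, limma adjusted p = 0.0378). The labels do not say whether samples with the same number belong together. Over 24 pairs with the same number, taken across all groups, the correlation of deviations was −0.695 to 0.481, with 8 over 0.1. Pairs on the same slide had a median of 0.263, so these correlations mix slide and number and cannot decide on pairing. With the slide as a block the counts were also 2, 0, 0, 3 and 0, with H2-DMa added. Ciita and other probes near background are the least certain.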
